A study of Mus musculus with 18 samples.

Results

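The enzymes described here are 7 genes of mouse amino acid metabolism whose products use pyridoxal phosphate, the active form of vitamin B6, and can be inhibited by aminooxyacetic acid (AOA). They were chosen by gene name, and all 7 were found among the 57180 genes of the count table: the aminotransferases Gpt2, Bcat1, Bcat2, Oat and Abat and the transsulfuration enzymes Cbs and Cth. The RNA came from L929 cells, an established mouse fibroblast line of wild-type genotype, in 6 groups of 3 independent cultures each, 18 libraries in all. Mock cells carried the treatment label DMSO. The AOA groups received 0.5 mM AOA with a pretreatment lasting 1 h, the HT-DNA groups were transfected by Lipofectamine 2000 with 0.5 µg/ml herring testis DNA, an activator of the cytosolic DNA sensor cGAS, and harvested at 6 h, and the groups marked Asp also had 20 mM aspartate. The groups were Mock, AOA, AOA+Asp, HT-DNA, HT-DNA+AOA and HT-DNA+AOA+Asp. No group had aspartate without AOA, a single cell line was used, and the labels do not say whether Mock cells received the transfection reagent. The sample descriptions used here give a harvest time for the groups with HT-DNA only. Effects named for HT-DNA below thus cover the DNA, the reagent and any difference in harvest time, which cannot be told apart.

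Pyridoxal phosphate enzymes hold their cofactor on a lysine of the active site and pass the amino group of a substrate through it. AOA carries an aminooxy group that reacts with the cofactor, so it acts on aminotransferases broadly and on some other enzymes of this kind. The inhibition acts on the protein, whereas the measurements below are of mRNA, and an inhibited enzyme can have a higher, lower or equal mRNA level. Gpt2 is the mitochondrial alanine aminotransferase, Bcat1 and Bcat2 are the cytosolic and the mitochondrial branched-chain aminotransferase, Oat is the mitochondrial ornithine aminotransferase, and Abat breaks down the transmitter GABA. Cbs joins homocysteine and serine to cystathionine, and Cth (cystathionine gamma-lyase) splits cystathionine to give cysteine. Their identifiers in the count table are ENSMUSG00000031700 (Gpt2), ENSMUSG00000030268 (Bcat1), ENSMUSG00000030826 (Bcat2), ENSMUSG00000030934 (Oat), ENSMUSG00000057880 (Abat), ENSMUSG00000024039 (Cbs) and ENSMUSG00000028179 (Cth).

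Of these genes, Cth, the last step towards cysteine, and Gpt2 changed most. Cth stood 1.86-fold higher with AOA than in Mock cells and 2.41-fold higher with AOA on top of HT-DNA, and Gpt2 stood 1.31-fold and 1.6-fold higher in the same comparisons. Both were lower after HT-DNA alone, at 0.759 and 0.696 of the Mock level. With aspartate added to AOA, Cth fell to 0.576 of its AOA level and Gpt2 to 0.739. With aspartate on top of HT-DNA and AOA, Cth stood at 0.654 of its HT-DNA+AOA level. Gpt2 stood at 0.924 of it, a difference that did not pass the test. Oat moved the other way under AOA with HT-DNA, to 0.743 of the HT-DNA level. Bcat1 and Bcat2 moved by less than 1.3-fold in each comparison with TMM factors, though Bcat1 moved further once GC and length trends were removed, and Abat and Cbs were not detectable beyond a few counts. Each fold change is the ratio of group means estimated by the test described next.

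Levels are given as CPM, estimated read counts per 1000000 counts of the library after its total was scaled by trimmed mean of M-values (TMM) factors. Differences are log2 fold changes with their standard error (SE), from edgeR's quasi-likelihood test fitted to all 18 libraries, and p-values were adjusted by the Benjamini-Hochberg method over the 14263 genes that passed a filter on low counts. A gene is called changed below an adjusted p of 0.05. Library totals ran from 17901605 to 24057343 counts. The 3 HT-DNA+AOA libraries differed more among themselves than those of any other group, with chi-square values per degree of freedom between pairs of libraries of 16.9 to 62.4 against 2.72 to 12.4 elsewhere, and results that rest on 1 of them are named as such. The test takes 1 spread per gene from all groups, so the SE of a comparison with HT-DNA+AOA also reflects the less variable groups. When the compared groups were fitted alone, 29.5% of all genes were called for HT-DNA+AOA against HT-DNA, in place of 45.4%. For AOA against Mock 52.7% were called, in place of 45.7%. Among fibroblast markers, Vim (vimentin) reached 2300 to 2970 CPM and 8 of 10 passed the filter, while Thy1 and Dcn stayed at 4 counts or fewer and 1 count or fewer. Of 12 markers of other cell types, Cd68, a lysosomal protein of macrophages that other cells also make, was the single one to pass it. The summed level of those 12 was 138.5 to 155.3 CPM in HT-DNA+AOA and 111.6 to 126.5 CPM in HT-DNA, and Cd68 was higher by a log2 fold change of 0.28 ± 0.071 (SE, edgeR adjusted p = 0.00346). Ptprc and Adgre1, which define leukocytes and macrophages, had 0 counts in every library. In bulk RNA, fewer cells of a type and less RNA per cell cannot be told apart.

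Promoter sequence from the RefSeq tables was found for 5 of the 7 genes (Gpt2, Bcat1, Bcat2, Oat and Cbs, but neither Cth nor Abat), with 7 start sites in all, and the 2 windows below are shown because these genes moved in opposite directions under AOA with HT-DNA. Each holds the 250 bases before the annotated start on build GRCm38.p6, read along the gene's strand. Capitals mark CCAAT or its reverse complement ATTGG, the box bound by nuclear factor Y. The Gpt2 window lies at chr8:85492326-85492575 on the plus strand and the Oat window at chr7:132576399-132576648 on the minus strand.
Gpt2: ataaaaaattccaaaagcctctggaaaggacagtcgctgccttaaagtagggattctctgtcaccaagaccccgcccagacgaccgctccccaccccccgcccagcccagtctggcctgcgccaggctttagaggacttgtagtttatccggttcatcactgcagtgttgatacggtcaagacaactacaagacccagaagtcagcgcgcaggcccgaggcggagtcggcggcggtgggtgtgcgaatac
Oat: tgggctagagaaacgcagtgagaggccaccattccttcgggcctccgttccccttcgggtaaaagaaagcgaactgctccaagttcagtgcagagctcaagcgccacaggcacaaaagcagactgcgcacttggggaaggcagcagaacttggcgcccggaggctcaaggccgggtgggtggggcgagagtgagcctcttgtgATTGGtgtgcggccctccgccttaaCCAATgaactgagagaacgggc
The Oat window held the box on both strands, 47 to 43 and 22 to 18 bases before the start, the Cbs window held it on both strands as well, and a Bcat1 window held it once. Of 32851 promoter windows of the same length, 33.8% held it. The core of the amino acid response element, TGATGNAA, at which ATF4 and its partners bind, was searched on both strands and did not occur in any of the 7 windows, against 3.45% of all windows. The antioxidant response element core TGACNNNGC did not occur in them either, against 10.2%, and the E-box CACGTG occurred in the Cbs window, against 6.02%. Such matches describe letters in a window and say nothing of whether a factor binds.

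The genes differed widely in abundance. Per kilobase of merged exons (GENCODE vM21 lengths), the mean level in Mock cells was 117.2 ± 1.42 CPM per kilobase for Oat (SD, n = 3), 34.68 ± 0.815 for Bcat1, 31.59 ± 2.66 for Cth, 21.92 ± 1.41 for Bcat2 and 14.23 ± 0.351 for Gpt2. Cth was the gene whose place in this order changed, since it passed Bcat1 in both groups with AOA and no aspartate. In AOA cells it reached 58.83 ± 1.1 CPM per kilobase against 39.99 ± 1.56 for Bcat1. Every library gave at least 1112 counts for each of these 5 genes.

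**Figure D1:**
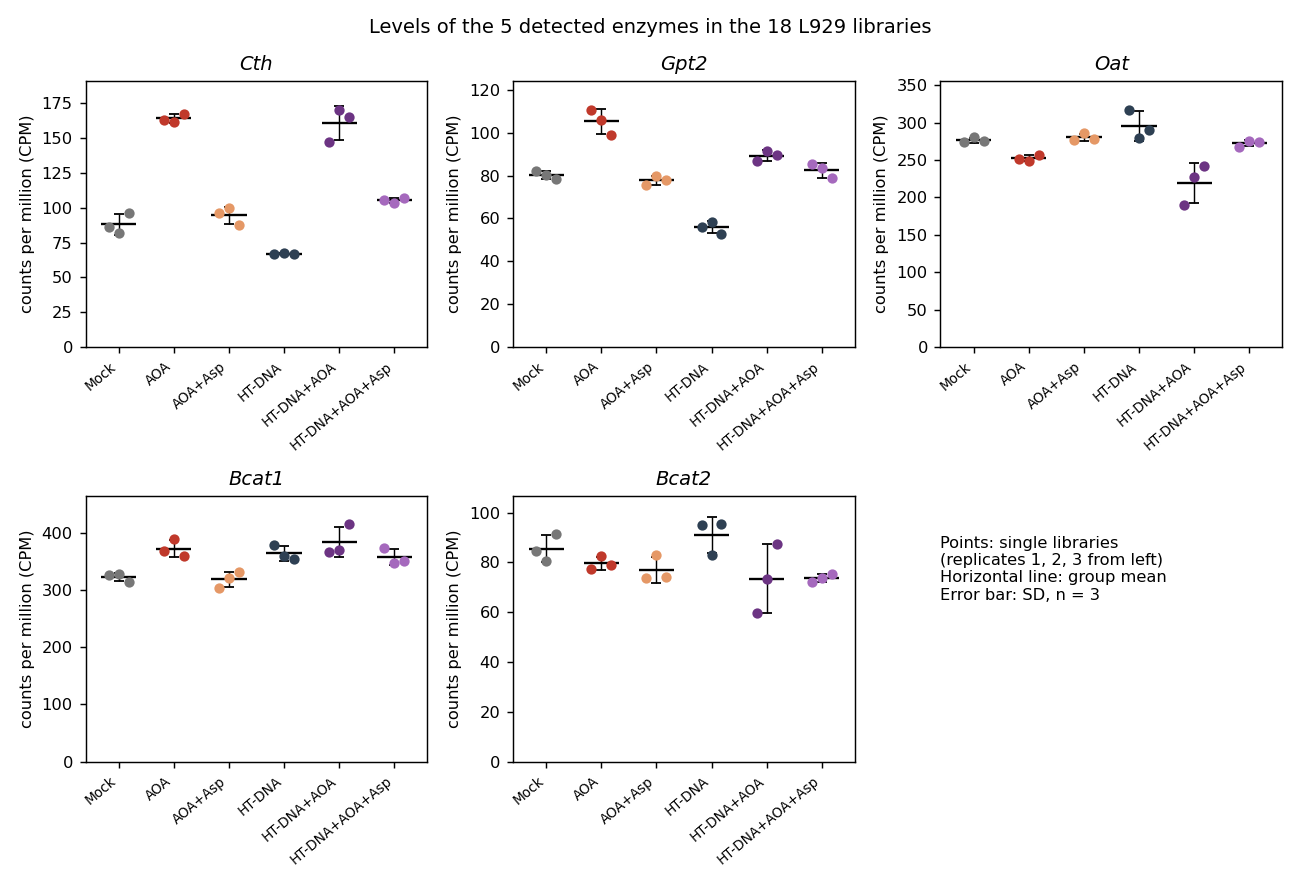
Level of Cth, Gpt2, Oat, Bcat1 and Bcat2 in CPM (vertical axes, from 0) in each of the 18 libraries, arranged by group along the horizontal axis. Points are libraries, horizontal lines are group means and error bars are SD (n = 3). The Cth points of AOA and HT-DNA+AOA, between 147.3 and 170.6 CPM, lie above all others, and the HT-DNA+AOA points of Oat and Bcat2 are the most widely spread of their panels.

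Abat and Cbs were close to the limit of detection in all 6 groups. Abat gave 0 to 5 counts per library and 25 counts over all 18 libraries, with 0 in 5 of them. Cbs gave 0 to 6 counts per library and 48 in all, with 0 in 3 of them. A count of 0 allows up to 3 counts, which is 0.126 to 0.179 CPM in these libraries, and the highest values were 0.2184 CPM for Abat, in an HT-DNA library, and 0.2936 CPM for Cbs, in an AOA+Asp library. For Cbs all groups overlapped. For Abat the 3 HT-DNA+AOA+Asp libraries, with 2 to 4 counts, lay above the Mock and the HT-DNA+AOA libraries, each with 0 to 1. In CPM they also lay just above AOA+Asp (lowest 0.09621 against highest 0.09331), and AOA+Asp lay just above Mock (0.04893 against 0.04746). These are differences of counts at or near that limit. Neither passed the filter on low counts, so a change of either was not detectable at this depth and 5 of the 7 genes were tested. The first enzyme of transsulfuration was thus barely detected in cells that gave 1321 to 3766 counts per library for the enzyme that follows it.

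The number of tested genes that changed differed between comparisons, and it is read against the share of all 14263 genes called by the same test. For AOA against Mock, 3 of the 5 were called, Cth, Gpt2 and Bcat1, all higher, where 45.7% of all genes were called and 22.4% were called higher. The 3 AOA and 3 Mock libraries did not overlap for 4 of the 5, against 59.4% of all genes. For AOA+Asp against AOA the same 3 genes were called, all lower, against 46.3% of all genes called and 22.8% called lower, and 4 of the 5 did not overlap, against 56.8%. For HT-DNA against Mock 3 were called, Bcat1 higher and Gpt2 and Cth lower, against 48.2% of all genes called, 24.2% higher and 24% lower, and 3 did not overlap, against 61.3%. For HT-DNA+AOA against HT-DNA 4 were called, Cth and Gpt2 higher and Oat and Bcat2 lower, against 45.4% called, 22.8% higher and 22.7% lower, and 3 did not overlap, against 44.8%. With 5 genes tested, none of these counts is read as setting the enzymes apart from other genes, and the sizes below carry the description. The median log2 fold change of the 5 was 0.21 for AOA against Mock and 0.08 for HT-DNA+AOA against HT-DNA, beside 0.015 and 0.024 over all genes.

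The remaining comparisons, which involve aspartate or set the HT-DNA groups against their counterparts without HT-DNA, gave 0 to 3 calls. For HT-DNA+AOA+Asp against HT-DNA+AOA 2 of the 5 were called, Oat higher and Cth lower, against 47.7% of all genes called, 23.7% higher and 23.9% lower, and 3 did not overlap, against 48.8%. For HT-DNA+AOA+Asp against HT-DNA 3 were called, Cth and Gpt2 higher and Bcat2 lower, against 46.6% called, 23.2% higher and 23.5% lower, and 4 did not overlap, against 61.1%. For AOA+Asp against Mock 0 of the 5 passed edgeR's quasi-likelihood test, 0 had an unadjusted p under 0.05 and DESeq2 called 0, where 6.47% of all genes were called, and 0 of the 5 did not overlap, against 32.7%. For HT-DNA+AOA against AOA 1 was called, Gpt2, lower, against 13.4% called and 6.98% called lower, and 2 did not overlap, against 21%. For HT-DNA+AOA+Asp against AOA+Asp edgeR and DESeq2 each called 0, while 2 had an unadjusted p under 0.05 (Bcat1 and Cth), against 3.45% of all genes called, and 3 did not overlap, against 28.5%. These comparisons share libraries with one another, so their values stand side by side and are not independent.

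**Figure D2:**
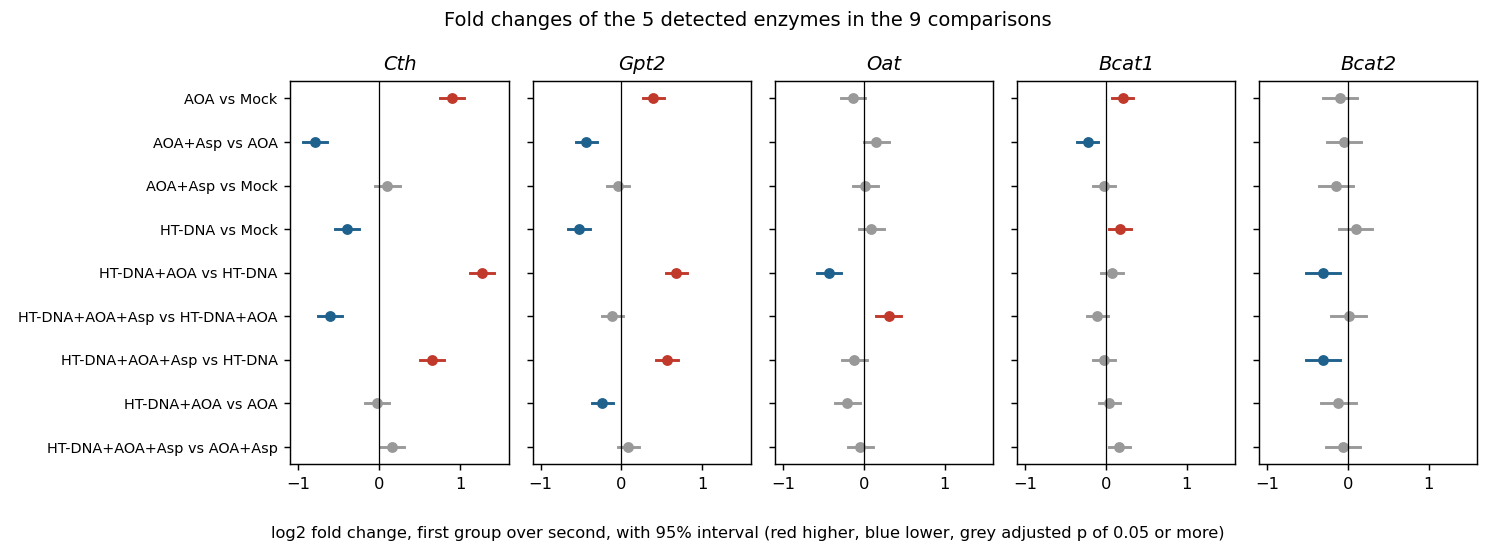
Log2 fold change (horizontal axes, first group over second) of the 5 detected enzymes in the 9 comparisons, from edgeR's quasi-likelihood test on 18 libraries. Points are estimates and bars are 95% intervals, in red or blue where the gene was called higher or lower. The highest estimate is that of Cth for HT-DNA+AOA against HT-DNA, 1.27, and the AOA+Asp against Mock estimates all have intervals that include 0.

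Cth, which releases cysteine from cystathionine, measured 86.33, 81.83 and 96.34 CPM in the 3 Mock libraries and 163.2, 161.7 and 167.6 CPM in the AOA libraries. The groups did not overlap, as held for 59.4% of all genes in this comparison, and the log2 fold change was 0.90 ± 0.072 (SE, edgeR adjusted p = 1.56e-08). In AOA+Asp cells Cth measured 95.97, 100.0 and 87.67 CPM, which is within reach of the Mock values. The log2 fold change was -0.80 ± 0.071 against AOA (edgeR adjusted p = 8.2e-08) and 0.10 against Mock, with a 95% interval from -0.049 to 0.25.

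HT-DNA cells had the lowest Cth level of all groups, 66.76, 67.36 and 66.65 CPM, with a log2 fold change of -0.40 ± 0.072 against Mock (edgeR adjusted p = 0.000283). With AOA added to HT-DNA, Cth measured 147.3, 170.6 and 165.5 CPM, every library above the highest Mock value. The log2 fold change against HT-DNA was 1.27 ± 0.073 (edgeR adjusted p = 1.08e-10). With aspartate as well, Cth measured 105.6, 103.7 and 106.7 CPM, between HT-DNA and HT-DNA+AOA with no overlap on either side. It had a log2 fold change of -0.61 against HT-DNA+AOA (edgeR adjusted p = 1.45e-06) and of 0.65 against HT-DNA (edgeR adjusted p = 5.59e-06).

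In order of mean level, Cth ran from HT-DNA through Mock, AOA+Asp, HT-DNA+AOA+Asp and HT-DNA+AOA to AOA. Neighbours in that order that the test did not separate were Mock and AOA+Asp (edgeR adjusted p = 0.454), AOA+Asp and HT-DNA+AOA+Asp (0.296, although the libraries did not overlap), and HT-DNA+AOA and AOA (0.855). Cth was thus at 161.1 ± 12.2 and 164.2 ± 3.07 CPM (SD, n = 3) under AOA with and without HT-DNA, from starting levels of 66.92 ± 0.382 and 88.17 ± 7.43 CPM. HT-DNA+AOA minus HT-DNA exceeded AOA minus Mock by 0.37 ± 0.10 on the log2 scale (edgeR adjusted p = 0.0208). Of the 5 genes, Cth and Gpt2 were called for this difference, both higher, where 15.5% of all genes were called and 7.23% were called higher. That call was lost without Mock replicate 3 (0.30, adjusted p = 0.0595), AOA replicate 2 (0.36, 0.0535) or HT-DNA+AOA replicate 2 (0.33, 0.0597). It was also lost with no filter on low counts (0.36, 0.0526) or with the libraries of the 4 groups alone (0.40, 0.0514).

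Around Cth, 16 genes of the methionine cycle, transsulfuration and glutathione synthesis were tested. With AOA against Mock 3 were higher, 3 lower and 10 not called, with a median of -0.0036 beside 0.015 over all genes. For this list and those that follow, the share of all genes called lay between 45.4% and 48.2% in the comparisons described, with medians over all genes between -0.012 and 0.024. Mtrr, which keeps methionine synthase active, rose by a log2 fold change of 0.71 (edgeR adjusted p = 1.86e-06). The cystine importer Slc7a11 (log2 fold change -0.69), the glutamate-cysteine ligase subunit Gclm (-0.58) and the methionine adenosyltransferase subunit Mat2b (-0.53) fell. The mRNAs of Slc7a11 and Cth, whose products serve separate routes to cysteine, had opposite signs in this comparison. With aspartate against AOA 3 were higher and 4 lower, Slc7a11 rising by 0.86 and Gclm by 0.65 while Mtrr fell by 0.75.

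In HT-DNA cells 4 of the 16 genes rose and 4 fell against Mock, near the 48.2% of all genes called, among them Slc7a11 (log2 fold change -0.99) and Gss, glutathione synthetase (0.60). With AOA on top of HT-DNA 2 rose, Mtr (0.63) and Mtrr (0.61), and 3 fell, with Gclm at -0.81 and the sulfite oxidase Suox at -0.56. With aspartate on top of both, 3 rose and 5 fell against HT-DNA+AOA, with Slc7a11 at 0.92, Gclm at 0.82 and Mtrr at -0.56. Slc7a11 thus stood higher with aspartate in both settings, where Cth stood lower.

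Gpt2, which makes alanine and 2-oxoglutarate from pyruvate and glutamate in mitochondria, measured 82.31, 80.3 and 78.36 CPM in Mock and 110.9, 106.1 and 99.08 CPM in AOA libraries. The log2 fold change was 0.39 ± 0.063 (edgeR adjusted p = 5.39e-05), with no overlap. In AOA+Asp cells it was back at 75.86, 80.05 and 77.81 CPM, which overlapped Mock, and the log2 fold change was -0.44 ± 0.063 against AOA (edgeR adjusted p = 1.91e-05) and -0.044 against Mock, with a 95% interval from -0.18 to 0.087.

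HT-DNA lowered the Gpt2 mRNA level to 56.2, 58.55 and 52.89 CPM, a log2 fold change of -0.52 ± 0.063 against Mock (edgeR adjusted p = 7.08e-06), below every library of the other groups. With AOA and HT-DNA together it measured 86.83, 91.74 and 89.57 CPM, 0.68 ± 0.064 above HT-DNA on the log2 scale (edgeR adjusted p = 6.54e-08). Unlike Cth, it did not reach its level under AOA alone. HT-DNA+AOA stood below AOA by a log2 fold change of -0.24 ± 0.063 (edgeR adjusted p = 0.0158), a call lost without AOA replicate 1 (-0.20, adjusted p = 0.0888) or AOA replicate 2 (-0.23, 0.0587), with no filter (-0.24, 0.10) and with the 2 groups alone (-0.22, 0.31).

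Aspartate on top of HT-DNA and AOA left Gpt2 at 85.5, 83.51 and 78.73 CPM, just under the HT-DNA+AOA libraries with no overlap, as for 48.8% of all genes. The log2 fold change of -0.11 ± 0.063 did not pass (edgeR adjusted p = 0.142), except without the GC and length trend (-0.13, 0.0185). Gpt2 remained 0.56 ± 0.064 above HT-DNA on the log2 scale (edgeR adjusted p = 6.77e-06). The effect of aspartate with HT-DNA was smaller in size than without it by a log2 difference of 0.32 ± 0.089, which did not pass in edgeR's test (adjusted p = 0.102). It passed in DESeq2 (0.31, adjusted p = 0.0112) and after each library's GC and length trend was removed (0.26, edgeR adjusted p = 0.0287). Among the 5 genes edgeR called 0 for this difference, 1 had an unadjusted p under 0.05 and DESeq2 called 1, where edgeR called 1.05% of all genes.

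The AOA effect on Gpt2 with HT-DNA exceeded that without by 0.29 ± 0.089 on the log2 scale (edgeR adjusted p = 0.0372). It failed without any 1 of 8 libraries: Mock replicates 1 (adjusted p = 0.0887), 2 (0.0706) and 3 (0.0517), AOA replicates 2 (0.0714) and 3 (0.0855), HT-DNA replicates 1 (0.0705) and 3 (0.102), and HT-DNA+AOA replicate 2 (0.0839). The difference itself stayed between 0.24 and 0.35 over the 12 libraries left out. Its call was also lost with no filter (0.27, edgeR adjusted p = 0.217) and with the compared groups alone (0.31, 0.0655). In the order of group means, Gpt2 ran from HT-DNA through AOA+Asp, Mock, HT-DNA+AOA+Asp and HT-DNA+AOA to AOA, and the 3 groups from AOA+Asp to HT-DNA+AOA+Asp were not separated by the test (edgeR adjusted p = 0.755 and 0.751 for neighbours).

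Of 7 tested genes that handle alanine and pyruvate, 4 rose and none fell with AOA against Mock. Aars, the alanyl-tRNA synthetase, rose by a log2 fold change of 0.59 (edgeR adjusted p = 1.78e-07), the mitochondrial pyruvate carrier subunits Mpc2 and Mpc1 by 0.34 and 0.29, and lactate dehydrogenase A (Ldha) by 0.29. The same 4 genes fell with aspartate against AOA, Aars by 0.50 on the log2 scale. On top of HT-DNA, AOA raised 2 of the 7, Aars by 0.72 and the pyruvate dehydrogenase subunit Pdha1 by 0.20, and the list's median was 0.12 beside 0.024 over all genes. With aspartate against HT-DNA+AOA 1 of the 7 rose and 4 fell, Aars by 0.46 on the log2 scale. HT-DNA alone raised Ldha (0.59), Mpc2 (0.43) and Mpc1 (0.29) and lowered Pdha1 (-0.34), with no call for Aars.

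Oat, which moves an amino group from ornithine to 2-oxoglutarate and so links the urea cycle with proline, was the most abundant of the 7 per kilobase. It measured 273.8, 280.4 and 276.0 CPM in Mock and 252.1, 248.5 and 256.7 CPM in AOA libraries. The groups did not overlap, but the log2 fold change of -0.13 ± 0.073 did not pass (edgeR adjusted p = 0.148). It passed when library totals replaced TMM factors (-0.26, adjusted p = 0.00216), a setting that also moved the median of all genes in this comparison from 0.015 to -0.12, after each library's GC and length trend was removed (-0.22, 0.0043), and with the 2 groups alone (-0.14, 0.0264). AOA+Asp libraries were at 277.3, 286.1 and 278.8 CPM, all above AOA, and the log2 fold change of 0.15 ± 0.073 against AOA did not pass (edgeR adjusted p = 0.0946), though it did with library totals (0.24, 0.00477) and without the GC and length trend (0.22, 0.00516).

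Under HT-DNA the 3 Oat levels were 317.7, 279.1 and 290.4 CPM, overlapping Mock. With AOA added they were 190.1, 227.5 and 241.5 CPM, below every library of the other groups, and the log2 fold change against HT-DNA was -0.43 ± 0.073 (edgeR adjusted p = 9.09e-05). It stayed called without any single library, between -0.50 and -0.34. With aspartate as well they were 268, 275.8 and 274 CPM, 0.31 ± 0.073 above HT-DNA+AOA on the log2 scale (edgeR adjusted p = 0.00192), a call lost with the 2 groups alone (0.30, adjusted p = 0.0593). They lay below the HT-DNA libraries without overlap, at a log2 fold change of -0.12 that did not pass (edgeR adjusted p = 0.197) and that passed without the GC and length trend (-0.17, 0.0365).

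The 6 group means of Oat ran from HT-DNA+AOA through AOA, HT-DNA+AOA+Asp, Mock and AOA+Asp to HT-DNA, and no 2 neighbours were separated by the test (edgeR adjusted p from 0.0805 to 0.916). The lowest pair, HT-DNA+AOA and AOA, did not overlap. Its log2 fold change of -0.20 passed with library totals (-0.22, adjusted p = 0.0255), without the GC and length trend (-0.30, 0.00137) and without HT-DNA+AOA replicate 3 (-0.27, 0.0102). The difference of the AOA effect with and without HT-DNA was -0.30 ± 0.10 (edgeR adjusted p = 0.0592). DESeq2 gave -0.28 with an adjusted p of 0.0397, removal of the GC and length trend -0.36 (edgeR adjusted p = 0.00635), and the fit without HT-DNA+AOA replicate 3, the highest of its group, -0.37 (0.00386). Over the other libraries left out it lay between -0.32 and -0.20 and was not called.

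Among 14 tested genes of ornithine, proline and polyamine metabolism, 7 rose and 1 fell with AOA against Mock, with a median of 0.34 beside 0.015 over all genes. Odc1, the ornithine decarboxylase that opens polyamine synthesis and is itself a pyridoxal phosphate enzyme, rose by 1.10 on the log2 scale (edgeR adjusted p = 1.26e-10). The proline-making enzymes Pycr1 (0.78) and Aldh18a1 (0.49) rose as well. With aspartate 9 of the 14 fell against AOA and none rose, Odc1 by 1.05 and Pycr1 by 0.81 on the log2 scale. Oat, which shares ornithine with Odc1, had the opposite sign in both comparisons without passing the test.

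HT-DNA raised 8 of these 14 genes and lowered 1 against Mock, among them spermidine synthase Srm (log2 fold change 0.85) and Pycrl (0.82). AOA on top of HT-DNA raised 5 and lowered 3, with Odc1 at 0.72, Pycr1 at 0.70, spermine synthase Sms at 0.59 and Aldh4a1, which oxidises the product of proline breakdown, at -0.53. Aspartate on top of both lowered 7 and raised none, with Odc1 at -0.97 and Prodh, proline dehydrogenase, at -0.61. The list's median difference of the AOA effect with and without HT-DNA was -0.27 beside 0.0059 over all genes. For this difference 5 of the 14 genes were lower and none higher. Over all 14263 genes 2209 (15.5%) were called, of which 1031 were higher and the remainder lower.

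Bcat1, the cytosolic branched-chain aminotransferase, measured 327.3, 328 and 314.5 CPM in Mock and 369, 388.8 and 360.5 CPM in AOA libraries, with no overlap and a log2 fold change of 0.21 ± 0.064 (edgeR adjusted p = 0.0128). The call was lost without Mock replicate 3 (0.19, adjusted p = 0.0504) or AOA replicate 2 (0.17, 0.0629), with no filter (0.20, 0.0774), and with library totals in place of TMM factors (0.074, 0.311). In AOA+Asp cells it measured 304.1, 320.6 and 331.4 CPM, -0.23 ± 0.064 against AOA on the log2 scale (edgeR adjusted p = 0.00704), which library totals reduced to -0.14 (0.0525).

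Bcat1 measured 379, 359.4 and 354.7 CPM in HT-DNA libraries, all above Mock, with a log2 fold change of 0.17 ± 0.064 (edgeR adjusted p = 0.0317). This call was lost without Mock replicate 1 (0.18, adjusted p = 0.062), 2 (0.18, 0.0584) or 3 (0.15, 0.0979) or HT-DNA replicate 1 (0.14, 0.123) or 2 (0.18, 0.0521), with no filter (0.18, 0.125), and with library totals (0.062, 0.392). HT-DNA+AOA libraries were at 367.3, 371 and 415.4 CPM and HT-DNA+AOA+Asp libraries at 374.6, 348.3 and 350.5 CPM. These overlapped the HT-DNA libraries and each other. HT-DNA+AOA+Asp lay above AOA+Asp by a log2 fold change of 0.17 (edgeR adjusted p = 0.19), which passed with the 2 groups alone (0.17, 0.0289).

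The longest annotated Bcat1 transcript, 7833 bases, is the longest of the 7 genes, and its values moved most when each library's trend on GC content and transcript length was removed. The log2 fold changes after that correction were 0.39 for AOA against Mock, -0.45 for AOA+Asp against AOA and 0.62 for HT-DNA against Mock (edgeR adjusted p = 0.0221, 0.00982 and 0.00156), more than 1.5 times those without it. HT-DNA+AOA+Asp fell below HT-DNA+AOA (-0.43, adjusted p = 0.0131) and below HT-DNA (-0.41, 0.0232), where the uncorrected values were -0.10 and -0.026. Part of the Bcat1 transcript, 250 exon bases, overlaps the opposite-strand gene Gm26666, which had 0 to 11 counts per library beside at least 6200 for Bcat1.

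Bcat2, the mitochondrial form, measured 84.76, 80.43 and 91.31 CPM in Mock, 77.46, 82.6 and 79.14 CPM in AOA and 73.57, 82.79 and 74.23 CPM in AOA+Asp libraries. These groups overlapped, and the log2 fold change of -0.10 for AOA against Mock did not pass (95% interval from -0.31 to 0.11, edgeR adjusted p = 0.438). It passed with library totals (-0.23, adjusted p = 0.042) and without the GC and length trend (-0.16, 0.0261). HT-DNA libraries measured 95.16, 82.85 and 95.35 CPM. HT-DNA+AOA libraries ranged most widely, at 59.87, 73.41 and 87.24 CPM, and overlapped HT-DNA.

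The Bcat2 log2 fold change for HT-DNA+AOA against HT-DNA was -0.31 ± 0.10 (edgeR adjusted p = 0.0167). It fell to -0.18 without HT-DNA+AOA replicate 1 (adjusted p = 0.079) and was not called without HT-DNA replicate 1 (-0.28, 0.0619) or 3 (-0.28, 0.0654) or with the 2 groups alone (-0.32, 0.129). With aspartate the libraries were at 72.11, 73.94 and 75.28 CPM, all below HT-DNA, with a log2 fold change of -0.30 ± 0.10 against HT-DNA (edgeR adjusted p = 0.0189). That call was lost without HT-DNA replicate 1 (-0.27, 0.0702) or 3 (-0.27, 0.0729) or HT-DNA+AOA+Asp replicate 1 (-0.29, 0.0584), and without the GC and length trend -0.054 was left (0.492).

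Bcat2 is also the gene of the 7 with most sequence in common with others, as 15.2% of the stretches of 31 bases in its transcripts occur in another gene, against 0.0363% for Cth. The opposite-strand gene 0610005C13Rik overlaps 444 of its exon bases and had 5 to 16 counts per library. In order of mean level the 6 Bcat2 groups ran from HT-DNA+AOA through HT-DNA+AOA+Asp, AOA+Asp, AOA and Mock to HT-DNA, with overlap between all neighbours.

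All 22 genes listed around the breakdown of branched-chain amino acids were tested. With AOA against Mock 10 rose and 1 fell, with a median of 0.22 beside 0.015 over all genes. Dbt, the acyltransferase core of the branched-chain keto acid dehydrogenase, rose by 1.21 on the log2 scale (edgeR adjusted p = 2.97e-05) and the enoyl-CoA hydratase Echs1 by 0.40. Bckdk, the kinase that switches the dehydrogenase off, rose by 0.30, and Ppm1k, the phosphatase that switches it on, fell by 0.92 on the log2 scale. With aspartate against AOA 2 rose and 7 fell, with Ppm1k at 1.15, Dbt at -1.14 and Bckdk at -0.47.

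HT-DNA lowered 7 of the 22 and raised 3 against Mock, among them Ppm1k (-0.93), Aldh6a1 (-0.73), Dbt (-0.71) and Acadsb (-0.70). AOA on top of HT-DNA raised 10 and lowered 1, with Dbt at 2.27 (edgeR adjusted p = 1.82e-08), the propionyl-CoA carboxylase subunit Pcca at 0.93 and Mccc1 at 0.52. Aspartate on top of both lowered 9 and raised 2, with Dbt at -1.46 and Ppm1k at 0.49. Dbt was thus higher with AOA and lower with aspartate in both settings, by more than either aminotransferase.

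Of 8 genes listed around GABA, 4 were tested, and Gad1 and Gad2, which make GABA, were not among them. The single call with AOA against Mock was Slc6a6, a transporter of taurine and beta-alanine, at -0.51 on the log2 scale (edgeR adjusted p = 3.1e-05). Slc6a6 rose with aspartate against AOA (0.46), fell with AOA on top of HT-DNA (-0.42) and rose with aspartate on top of both (0.57). Aldh9a1 was called in HT-DNA+AOA+Asp against HT-DNA, at -0.23.

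**Figure D3:**
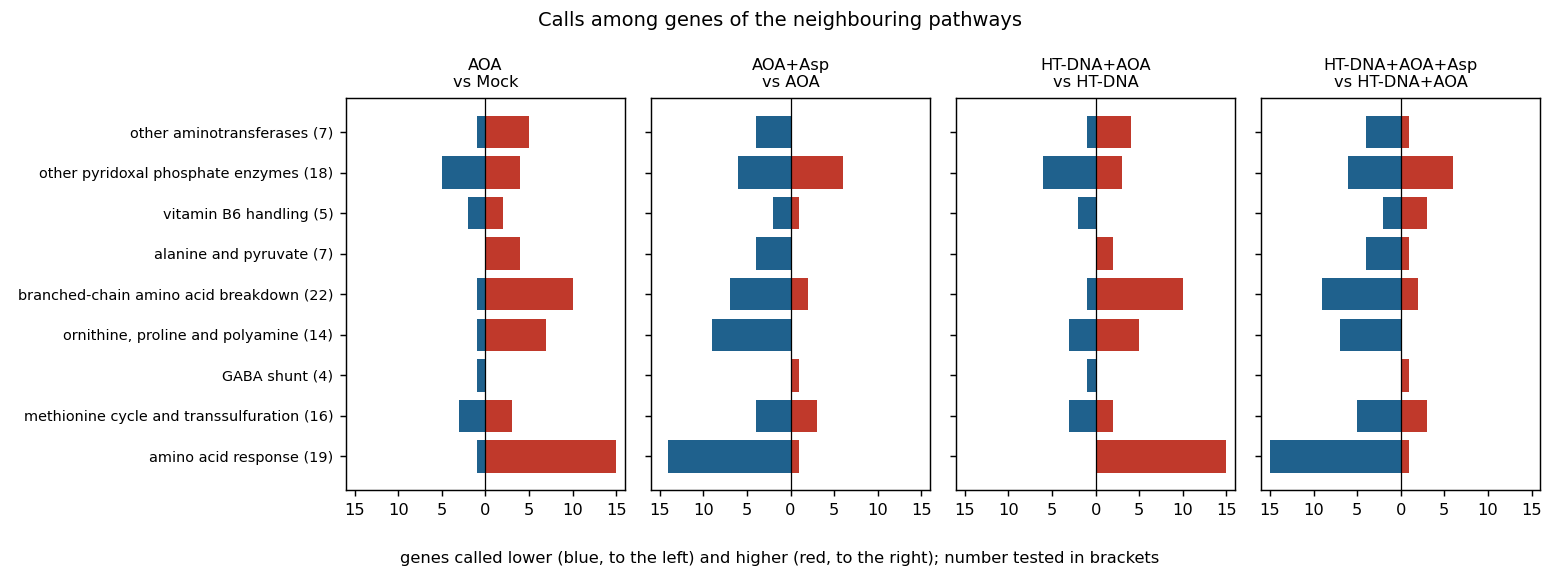
Number of genes called higher (red, to the right) and lower (blue, to the left) by edgeR's quasi-likelihood test in each list, for AOA and for aspartate without and with HT-DNA. Numbers tested stand in brackets. Of the 19 tested genes of the amino acid response, 15 were higher in each AOA comparison and 14 or 15 were lower with aspartate, and the vitamin B6 list, with 5 tested genes, had calls on both sides in 3 of the 4 comparisons.

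Enzymes of the same cofactor class outside the 7 moved in both directions. In a list of other aminotransferases, which also holds the related lyase Phykpl, 7 genes were tested. With AOA against Mock 5 rose and 1 fell, where 45.7% of all genes were called and 22.4% called higher. Kyat1 was at 0.79, Phykpl at 0.49, the cytosolic aspartate aminotransferase Got1 at 0.46 and Kyat3 at -0.53 on the log2 scale. With aspartate against AOA 4 fell and none rose, Kyat1 by 1.35, Got1 by 0.58 and the mitochondrial Got2 by 0.40. On top of HT-DNA, AOA raised 4 and lowered 1, and aspartate on top of both lowered 4 and raised 1. The medians in these 4 comparisons were 0.391, -0.398, 0.335 and -0.355. Got1 and Phykpl thus went with Gpt2 and Cth under AOA, and Kyat3 went the other way. Kyat1 and Kyat3 make kynurenic acid, and Kyat1 also acts on cysteine conjugates.

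Of 18 tested pyridoxal phosphate enzymes that are not aminotransferases, 4 rose and 5 fell with AOA against Mock. Odc1 (1.10) and the mitochondrial serine hydroxymethyltransferase Shmt2 (0.41) rose, while the glycogen phosphorylase Pygb (-0.97) and the sphingosine-phosphate lyase Sgpl1 (-0.55) fell. With aspartate against AOA 6 rose and 6 fell, with Alas1, the first enzyme of haem synthesis, at 0.72, Pygb at 0.70 and Gcat at -0.61. AOA on top of HT-DNA raised 3 and lowered 6, with the serine racemase Srr at 0.98 and Pygb at -0.93. HT-DNA alone raised 9 and lowered 3. Hdc, the histidine decarboxylase, was among those that rose, from 0.1471 ± 0.105 CPM in Mock to 5.469 ± 0.373 CPM (SD, n = 3, edgeR adjusted p = 1.35e-09), and its Mock level is near the limit for a count of 0. The medians in these 4 comparisons were 0.19, -0.157, -0.052 and 0.242, and the calls, 9, 12, 9 and 12 of 18, compare with the shares of all genes given above.

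Of 6 genes that make, recycle or carry vitamin B6, 5 were tested. With AOA against Mock the pyridoxal kinase Pdxk fell by 0.24 on the log2 scale and Aox1, the oxidase that degrades pyridoxal, by 0.96, while Pdxp rose (0.36). HT-DNA raised Pdxk by 0.66 (edgeR adjusted p = 3.2e-06), and AOA on top of HT-DNA lowered it by a log2 fold change of -0.65 (edgeR adjusted p = 7.73e-07). With aspartate on top of both 3 of the 5 rose and 2 fell against HT-DNA+AOA, with Aox1 at 0.90 and Pdxp at -0.33.

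Cth and Gpt2 followed much the same order of libraries. Over the 18 libraries the Pearson correlation of their log2 CPM was 0.882, against -0.754 for Cth with Oat, 0.681 for Bcat2 with Oat and 0.0166 for Bcat1 with Bcat2. These describe 6 group levels of 3 libraries each, which share their treatments and their scaling. Among 9942 other tested genes that averaged 5 CPM or more, the 3 most like Cth were Trib3, Gadd45a and Gtpbp2, each at 0.979. Trib3 is a pseudokinase induced when amino acids are short, and Gadd45a is a stress-induced growth arrest gene. Gadd45a moved further than Cth, from 23.1 ± 2.4 CPM in Mock to 177.4 ± 2.33 CPM in AOA cells (SD, n = 3), and from 14.65 ± 0.481 to 215.7 ± 10.1 CPM with HT-DNA.

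The 3 genes most like Gpt2 were Kif21b (0.972), Trim66 (0.96) and Gramd1b (0.958), those most like Oat were Chmp7 (0.952), Sh3bp4 (0.949) and Ung (0.94), those most like Bcat1 were Dhx37 (0.921), Psmg3 (0.918) and Ctu2 (0.913), and those most like Bcat2 were Zbtb22 (0.94), Eipr1 (0.916) and Ensa (0.909). Kif21b is a kinesin motor, Chmp7 a subunit of the membrane-cutting ESCRT-III complex and Ung the uracil-DNA glycosylase. None of the 15 genes was one of the 7.

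**Figure D4:**
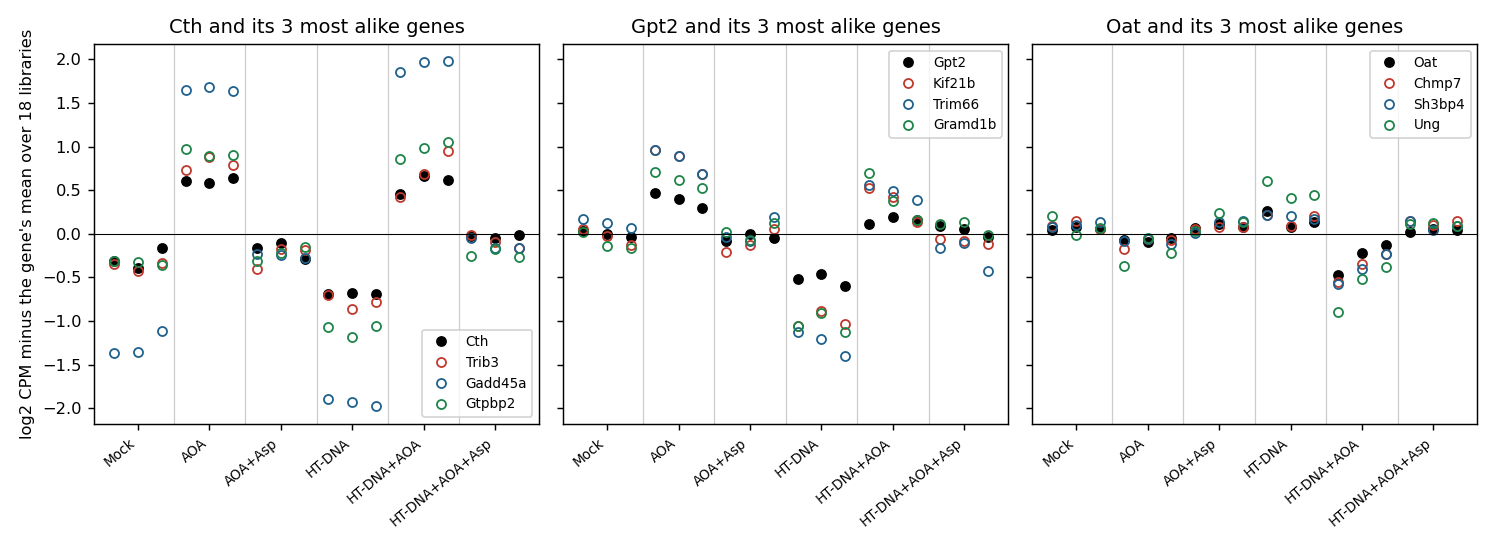
Log2 CPM minus each gene's mean over the 18 libraries (vertical axis) for Cth, Gpt2 and Oat (filled black) and for the 3 genes with the highest Pearson correlation to each (open circles), library by library within group. Trib3 lies close to Cth in most groups, while Gtpbp2 spans a wider range than Cth and Gadd45a the widest. The lowest Oat point is HT-DNA+AOA replicate 1 at 190.1 CPM.

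Trib3 belongs to 19 tested genes listed as the amino acid response, the transcripts that rise through ATF4 when amino acids run short, a list that also holds Slc7a11 of the methionine list and Psat1 of the aminotransferases. With AOA against Mock 15 of them rose and 1 fell, with a median of 0.52 beside 0.015 over all genes, and the transcription factor Ddit3 rose by 3.0 (edgeR adjusted p = 3.49e-14), the glutathione-degrading Chac1 by 1.91 and Trib3 by 1.17 on the log2 scale. With aspartate against AOA 14 fell and 1 rose, with Ddit3 at -1.82 and Chac1 at -1.89. With AOA on top of HT-DNA 15 rose and none fell, with Ddit3 at 3.44 and Trib3 at 1.49, and aspartate on top of both lowered 15 and raised 1. The Cth values of 0.90, -0.80, 1.27 and -0.61 in these 4 comparisons had the same signs as the list's medians of 0.52, -0.61, 0.71 and -0.48. The medians over all genes had these signs as well (0.015, -0.0091, 0.024 and -0.012), as did Gpt2, Bcat1 and the medians of the other aminotransferases. The match in sign is thus particular neither to Cth nor to this list. With HT-DNA alone 5 of the list rose and 8 fell, with a median of -0.071, where Cth and Gpt2 both fell.

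**Figure D5:**
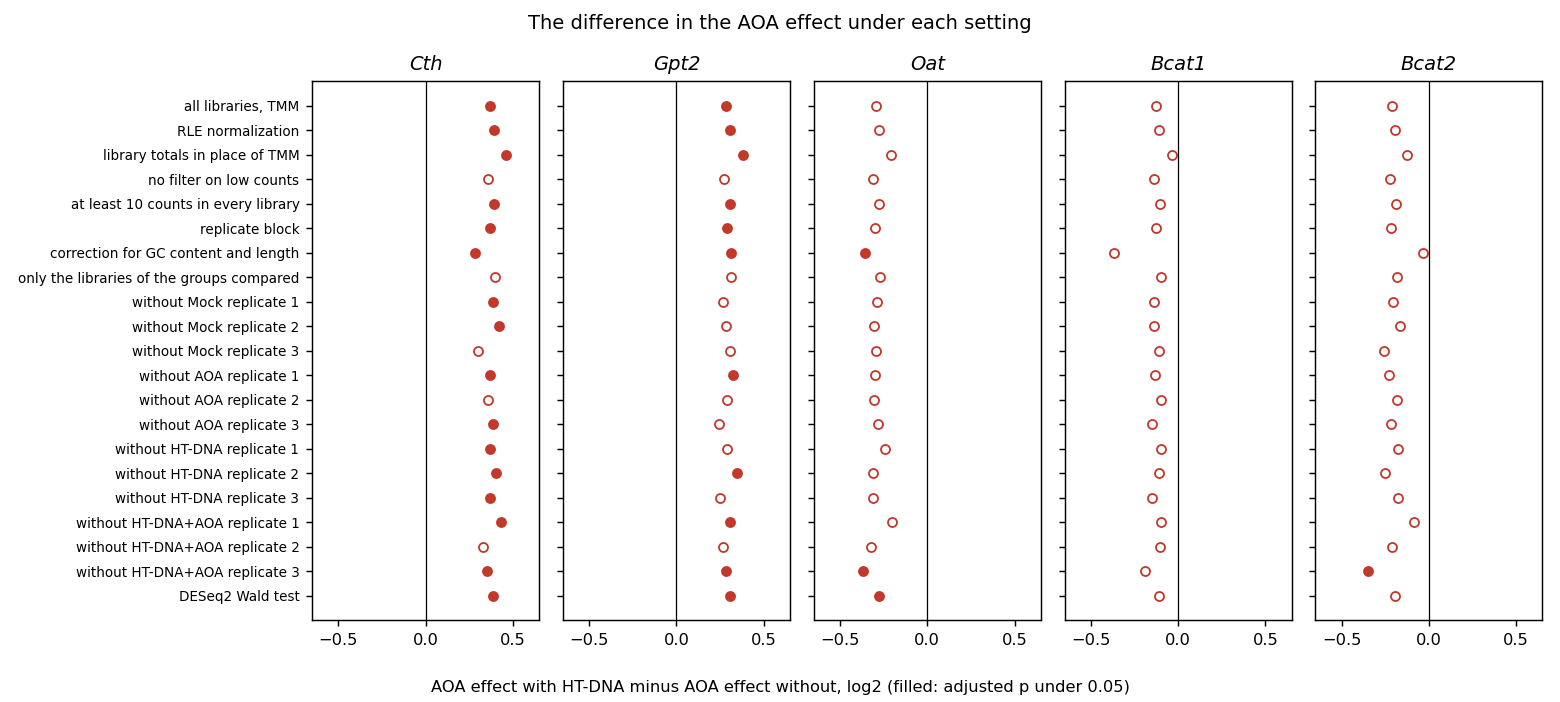
Difference of the AOA effect with and without HT-DNA (horizontal axes, log2) for the 5 detected enzymes under each setting of the analysis and with each library left out in turn. Filled points passed an adjusted p of 0.05 and open points did not. The Cth and Gpt2 points all lie above 0 and the Oat points all below it, and which of them pass changes with the setting.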

How the data were processed

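RNA of 18 L929 cultures was extracted with TRIzol and sequenced by a service provider. The table the authors deposited holds expected counts, that is, read numbers per gene estimated by their counting program (11.6% of values not whole), along with their own group means, which were not used. The aligner, counting program, genome build and strand setting are not given in the sources used here. The design had assumed whole counts, so the values were rounded first. All 18 single-library columns were matched to a group through the labels. Genes were filtered by filterByExpr at its minimum count of 10 and minimum total of 15, scaled by TMM and tested with edgeR 4.0.16 in R 4.3.3 by the quasi-likelihood test (robust), 1 mean per group and no covariate, for 9 comparisons and 2 differences of effects. P-values were adjusted over 14263 genes. Fitted fold changes use edgeR's default prior count. The 3 cultures per group are the study's independent replicates. Intervals are at 95%, and the limit for a count of 0 is 3 counts and covers counting error only. Depth was 17901605 to 24057343 counts per library.

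Alternatives were DESeq2 1.42.0, RLE factors, library totals, no filter, a filter of 10 counts in every library, the compared groups alone, a replicate block, each library left out, and, added after seeing the data, a correction for GC content and length (loess, span 0.3, longest GENCODE vM21 transcript, known for 97.5% of tested genes). The test was also run on simulated counts, for AOA against Mock alone and with the same spread in every group. That run does not cover the wider spread of the HT-DNA+AOA libraries. The 7 genes and all lists were chosen with earlier results of these data known. All 7 are described with every value, up to 4 called genes with the largest change are named per list and comparison (some that met this rule are not reported here), and the 3 genes most correlated with each detected enzyme are named. Where a symbol had more than 1 identifier, the one with most counts was used. Promoter windows come from RefSeq (GRCm38.p6), exon lengths and shared stretches of 31 bases from GENCODE vM21. Both are used for sequence and length only, since the build behind the counts is unknown.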

Additional observations from a re-analysis of the deposited data

Results flagged for a closer look

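The effect of AOA differed between cells with and without HT-DNA for 2 of the 5 tested enzymes, by a test of the difference itself (the interaction contrast of edgeR's quasi-likelihood test). Over all genes, 15.5% were called for this difference and 7.23% were called higher. For Cth it was larger with HT-DNA by 0.371 on the log2 scale (SE 0.101, adjusted p = 0.0208), with all 3 HT-DNA+AOA libraries above all 3 HT-DNA libraries and all 3 AOA libraries above all 3 Mock libraries. For Gpt2 it was larger by 0.286 (SE 0.089, adjusted p = 0.0372), with the same separation of libraries. Libraries did not overlap in these comparisons for 44.8% and 59.4% of all genes. Such separation concerns each effect and not the difference between them. Over 12 fits that each left out 1 library, the Cth difference ran from 0.302 to 0.431 and lost its call in 3 fits, and that of Gpt2 ran from 0.244 to 0.347 and lost its call in 8. Both calls were also lost with no filter on low counts (edgeR adjusted p = 0.0526 for Cth and 0.217 for Gpt2). With the compared groups alone they were lost as well (0.0514 and 0.0655).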

How the results depend on the processing

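Apart from left-out libraries, 76 counts of called enzymes stayed within 1.5 times their value and 12 did not, and 395 fold changes kept direction and call, 14 lost a call, 18 gained one and 13 changed sign. The cause of these changes was not tested. None of the sign changes concerned a called value.

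Counts of called enzymes that moved were as follows, with the share of all genes called in the same fit in brackets. For HT-DNA+AOA against AOA the count of 1 (13.4%) became 2 with library totals (13.2%) and 2 with the GC and length correction (20.2%). It became 0 with no filter (6.85% of 29986 genes) and 0 with the compared groups alone (2.74%). For the difference of the AOA effect the count of 2 (15.5%) became 0 with no filter (9.22%) and 0 with the compared groups alone (6.2%). The correction gave 5 for AOA against Mock (51.8%) in place of 3 (45.7%). It gave 4 for HT-DNA+AOA+Asp against HT-DNA+AOA (50.7%) in place of 2 (47.7%). For the difference of the aspartate effect it gave 1 (2.9%) in place of 0 (1.05%). The compared groups alone gave 1 for HT-DNA+AOA+Asp against HT-DNA+AOA (29.7%). They gave 1 for HT-DNA+AOA+Asp against AOA+Asp (12.9%) in place of 0 (3.45%). DESeq2 gave 1 for the difference of the aspartate effect (2.26%).

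The log2 fold change of Bcat2 for HT-DNA+AOA+Asp against HT-DNA+AOA, 0.0064, was -0.00712 with RLE factors, -0.00219 with 10 counts in every library, -0.00133 with the compared groups alone and -0.00724 in DESeq2. With library totals, Bcat2 was 0.0312 for AOA+Asp against AOA and -0.0187 for HT-DNA against Mock, Oat was -0.0259 for AOA+Asp against Mock and -0.0151 for HT-DNA against Mock, and Bcat1 was 0.0261 for HT-DNA+AOA+Asp against HT-DNA. The same setting moved the median of all genes for HT-DNA against Mock from -0.0076 to -0.118. With the correction, Bcat2 was 0.0904 for AOA+Asp against AOA and -0.127 for HT-DNA against Mock, and for AOA+Asp against Mock Oat was -0.00381 and Gpt2 0.0145.

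With 1 library left out, the count of called enzymes ran from 2 to 3 for AOA against Mock, HT-DNA against Mock and HT-DNA+AOA+Asp against HT-DNA, from 3 to 4 for HT-DNA+AOA against HT-DNA, from 0 to 2 for HT-DNA+AOA against AOA and from 0 to 4 for the difference of the AOA effect, and did not move elsewhere. The 4 was without HT-DNA+AOA replicate 3, where 38.2% of all genes were called for this difference, against 15.5% with all libraries. Oat (-0.369, edgeR adjusted p = 0.00386) and Bcat2 (-0.351, 0.0213) were called lower in that fit. In the fits with a count of 0 for this difference, 8.08% to 10.6% of all genes were called. Values that changed sign were Bcat1 for AOA+Asp against Mock (-0.0496 to 0.012), for HT-DNA+AOA+Asp against HT-DNA (-0.0602 to 0.00328) and for HT-DNA+AOA against AOA (-0.0143 to 0.0766), Cth for HT-DNA+AOA against AOA (-0.0703 to 0.0341), and Bcat2 for HT-DNA+AOA against AOA (-0.259 to 0.00886), for HT-DNA+AOA+Asp against HT-DNA+AOA (-0.121 to 0.147) and for the difference of the aspartate effect (-0.0676 to 0.2).

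The deviations of libraries with the same replicate number correlated between groups from -0.11 to 0.278 with a median of 0.00811, over 0.1 in 7 of 45 pairs. Whether libraries with the same number were handled together is not settled by these values. With the number as a replicate block, the counts of called enzymes were 3 for AOA against Mock, 3 for AOA+Asp against AOA, 4 for HT-DNA+AOA against HT-DNA and 2 for the difference of the AOA effect, as without the block, and no call changed. Depth limits Abat and Cbs alone.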
